A study of Homo sapiens with 15 samples.

Results

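The genes described here encode Polycomb repressive complex 2 (PRC2) and its partners. They are EZH2, EZH1, SUZ12, EED, RBBP4, RBBP7, MTF2, PHF19 and JARID2, chosen by name with earlier results of these data known, and all 9 were found among the 17272 genes of the expression table. RNA was sequenced from LNCaP, an androgen-sensitive human prostate cancer cell line grown from a lymph node metastasis. Cells were first starved for 2 days in medium with 10% charcoal-stripped serum, which removes steroid hormones. They were then treated for 22 h with the synthetic androgen R1881 (1 nM) together with the antiandrogen darolutamide (2 µM) in 5 libraries, or with 1 nM R1881 and DMSO as named in the labels in 10 libraries. All groups therefore carried R1881, and libraries without it were not analysed here. In the methods of the study the group sizes are swapped and the R1881 concentration is higher than in the labels, and the labels were followed.

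PRC2 places methyl groups on lysine 27 of histone H3, a mark of silenced genes. EZH2 or EZH1 is the catalytic subunit and works only when bound to SUZ12 and EED, while RBBP4 or RBBP7 binds histones. MTF2, PHF19 and JARID2 join in alternative forms of the complex and help to bring it to its target genes. EZH2 is typical of dividing cells and is often raised in advanced prostate cancer, whereas EZH1 is also found in resting cells.

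With darolutamide, EZH2 fell and EZH1 rose in every alternative run. RBBP7 and RBBP4 were called lower and JARID2 higher, each under some settings and not others. SUZ12, EED, MTF2 and PHF19 did not pass the main test. Of these, only MTF2 was called under other settings, higher by library totals and without combination libraries 3 and 4. Among the combination libraries MTF2 was lowest in 3 and 4, so a larger difference follows from leaving them out. The count was 3 of 9 genes lower and 2 of 9 higher at an adjusted p under 0.05 (limma on log2 of CPM plus 0.5, where CPM are the deposited values, read counts divided by 1 factor per library that goes beyond the library total, Benjamini-Hochberg over all genes). Across the whole table, 46.6% of genes passed the same test, 23.7% lower and 22.8% higher, so that the share of PRC2 genes called was close to that of all genes. No PRC2 gene had all combination libraries above, or all below, every R1881 library, against 23.4% of all genes. In bulk RNA, fewer cells that express a gene and less of its RNA per cell cannot be told apart.

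**Figure D1:**
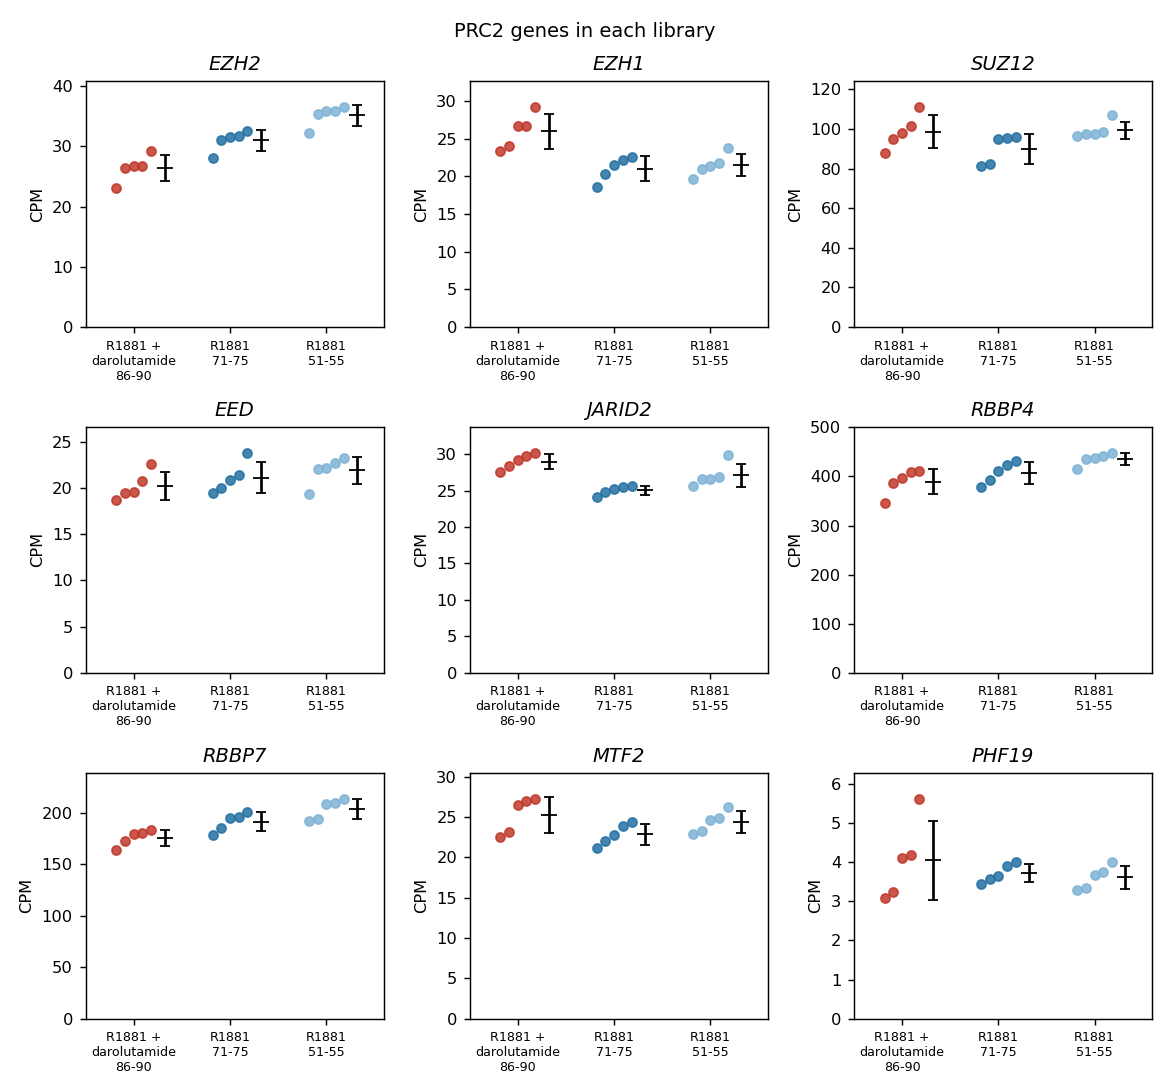
Expression of the 9 PRC2 genes in each library, in CPM (the deposited scaled values), with points for libraries and bars for the mean and SD of each series of library numbers. The combination of R1881 and darolutamide is on the left, followed by the R1881 libraries numbered 71 to 75 and 51 to 55. EZH2 averaged 26.4 CPM in the combination and 33.1 CPM over the 10 R1881 libraries, and EZH1 averaged 26.0 CPM in the combination and 21.3 CPM over the R1881 libraries.

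The libraries held 21870398 to 25317567 reads in the combination group and 15830745 to 24316740 in the R1881 group. The 5 combination libraries carried the numbers 86 to 90 in their names, and the 10 R1881 libraries 71 to 75 and 51 to 55. No series of numbers held both treatments, so that a difference between series and the effect of darolutamide cannot be told apart. The androgen-induced gene FKBP5, a check of the labels, was at 152 ± 11.1 CPM in the combination and 1502 ± 87.4 CPM with R1881 (SD, n = 5 and 10), and KLK3, which encodes prostate-specific antigen, was at 615 ± 55.9 CPM in the combination and 1588 ± 209 CPM with R1881. Of the luminal prostate markers, 6 were lower in the combination, FOLH1 was higher and HOXB13 did not pass the test. Of other cell types, 0 of 6 immune, 1 of 4 basal, 1 of 4 endothelial and 3 of 6 fibroblast markers were in the table. The fibroblast markers COL3A1, COL1A1 and LUM were all higher, against 22.8% of all genes, with LUM at only 2 to 14 reads per library. They summed to 13.5 to 30.6 CPM in the combination and 6.36 to 10.5 CPM with R1881. The COL1A1 call was lost without combination library 4 (log2 fold change 0.28, adjusted p = 0.114, limma, against 0.57 with it), and the sum in the other 4 combination libraries was 13.5 to 17.5 CPM. The basal marker KRT14 stood at 0.624 CPM in the combination and 1.02 CPM with R1881, and the endothelial marker VWF at 3.82 CPM in the combination and 2.56 CPM with R1881. The part of these markers in the PRC2 values was not tested.

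The catalytic pair moved in opposite directions. EZH2, the more active methyltransferase of the pair, lies on chromosome 7 (chr7:148807257-148884321, minus strand, GRCh38, GENCODE 44) and its main transcript has 20 exons. EZH1, its close relative, lies on chromosome 17 (chr17:42700275-42745049, minus strand) with 21 exons. Their promoters are shown because these genes, which fill the same place in the complex, differed in direction. The 250 bases before the start of each transcript are printed 5′ to 3′ on the coding strand from RefSeq (GRCh38.p14), chr7:148884292-148884541 for EZH2 and chr17:42745041-42745290 for EZH1. Capitals mark CCAAT, the word bound by the general promoter factor NF-Y, in either orientation.
EZH2: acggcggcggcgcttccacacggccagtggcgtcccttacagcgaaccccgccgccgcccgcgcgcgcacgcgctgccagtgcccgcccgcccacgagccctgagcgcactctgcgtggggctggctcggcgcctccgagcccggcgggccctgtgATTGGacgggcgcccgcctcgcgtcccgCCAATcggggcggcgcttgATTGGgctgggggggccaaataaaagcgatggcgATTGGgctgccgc
EZH1: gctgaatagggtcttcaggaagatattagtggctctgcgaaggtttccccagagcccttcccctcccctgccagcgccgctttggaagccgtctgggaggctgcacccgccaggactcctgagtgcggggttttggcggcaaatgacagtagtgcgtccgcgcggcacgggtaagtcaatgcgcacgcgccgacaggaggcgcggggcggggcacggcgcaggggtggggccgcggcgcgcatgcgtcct
The EZH2 window held 4 CCAAT words, at 94, 66, 47 and 13 bases before the start, and 0.991% of 35116 RefSeq promoters held at least 4. EZH2 also carried the E2F word TTTGGCGC at base 2 of the transcript, within the 50 bases after the start. The EZH1 window held neither CCAAT nor any of the other words searched, and the second RefSeq start of EZH2 had none either. These matches describe the letters in the windows only.

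EZH2 was at 26.7, 26.8, 26.5, 23.1 and 29.2 CPM in combination libraries 1 to 5. In the R1881 libraries its lowest value was 28.1, its median 32.4 and its highest 36.5 CPM. All combination libraries but 1 therefore lay below every R1881 library, and the groups touched only at combination library 5 and the lowest R1881 library. The mean was 26.4 ± 2.19 CPM in the combination and 33.1 ± 2.73 CPM with R1881 (SD, n = 5 and 10), 20.1% lower. The log2 fold change was -0.32 ± 0.064 (SE) with an adjusted p of 0.000512 by limma, and its 95% interval ran from -0.45 to -0.18. The difference was -0.23 against R1881 libraries 71 to 75 alone and -0.41 against libraries 51 to 55 alone, both past the limma threshold with adjusted p of 0.0174 and 0.000277.

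EZH1 showed the opposite pattern. It was at 26.7, 24.0, 29.1, 23.4 and 26.7 CPM in combination libraries 1 to 5, against a lowest value of 18.6, a median of 21.5 and a highest of 23.7 CPM in the R1881 libraries. Only combination library 4 fell within the R1881 range. EZH1 averaged 26.0 ± 2.32 CPM in the combination and 21.3 ± 1.47 CPM with R1881, 22.2% higher, with a log2 fold change of 0.28 ± 0.061 (SE) and an adjusted p of 0.000894 by limma. Against libraries 71 to 75 alone the difference was 0.30 and against libraries 51 to 55 alone 0.27.

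The ratio of EZH2 to EZH1 within a library does not depend on how that library was scaled. It was 0.999, 1.11, 0.909, 0.986 and 1.09 in combination libraries 1 to 5, whereas the R1881 libraries ran from 1.40 through a median of 1.52 to 1.71. The groups did not overlap, and the R1881 libraries numbered 71 to 75 (1.40 to 1.53) and 51 to 55 (1.51 to 1.71) both lay above the combination. The mean log2 ratio was 0.61 lower in the combination, a log2 difference of -0.61 with an exact two-sided permutation p of 0.000333, the smallest that the 3003 relabellings allow, and 0.00133 after Benjamini-Hochberg adjustment over the 4 subunit ratios examined. Single libraries were relabelled, so this p measures the spread between libraries and not between series. The mean log2 ratio was 0.56 in R1881 libraries 71 to 75 and 0.71 in libraries 51 to 55.

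**Figure D2:**
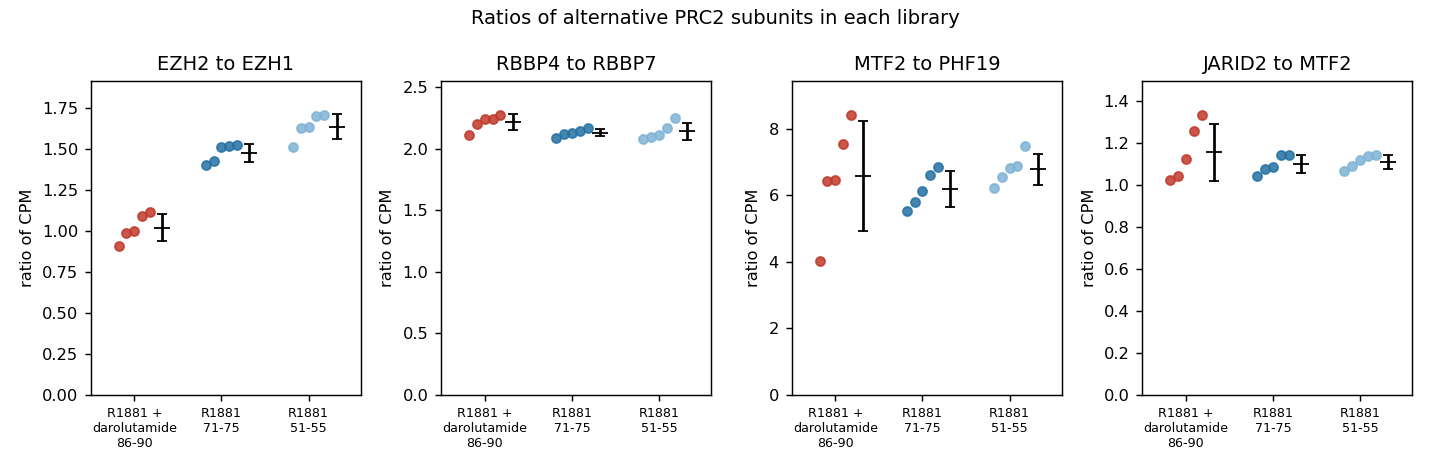
Ratios of CPM between alternative PRC2 subunits in each library, with points for libraries and bars for the mean and SD of each series of library numbers. EZH2 to EZH1 was 0.909 to 1.11 in the combination and 1.40 to 1.71 with R1881 and is the ratio whose groups did not overlap. The ratios RBBP4 to RBBP7, MTF2 to PHF19 and JARID2 to MTF2 overlapped between the groups.

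Divided by the length of the main transcript, the level of EZH2 was 9.96 ± 0.825 CPM per kb in the combination and 12.5 ± 1.03 with R1881, and that of EZH1 was 5.61 ± 0.501 CPM per kb in the combination and 4.59 ± 0.317 with R1881. EZH2 thus remained the more abundant transcript of the pair per length in both groups. The EZH1 share of the summed level was 36.04 ± 1.91% (33.95 to 38.6) in the combination and 26.9 ± 1.35% (25.1 to 28.97) with R1881. The sum of both was 15.6 ± 1.16 CPM per kb in the combination and 17.1 ± 1.24 with R1881. This share and sum were calculated after the values had been seen and were not tested.

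The core partners of the catalytic subunits did not pass the test. SUZ12, the scaffold that holds the complex together (chr17:31937007-32001038, plus strand), was at 94.8, 101, 111, 87.8 and 98.2 CPM in combination libraries 1 to 5 and had a lowest value of 81.1, a median of 96.3 and a highest of 107 CPM with R1881. Its log2 fold change was 0.06 ± 0.062 (SE; 95% interval -0.07 to 0.19; adjusted p = 0.463, limma). The R1881 range covered most of the combination values, with library 3 above it. Against R1881 libraries 51 to 55 alone the sign turned, to -0.01.

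EED, which reads the trimethylated lysine and thereby stimulates the enzyme (chr11:86201212-86278813, plus strand), was at 19.6, 20.8, 22.6, 18.7 and 19.4 CPM in combination libraries 1 to 5. With R1881 its lowest, median and highest values were 19.4, 21.7 and 23.8 CPM. The combination values lay largely inside the R1881 range. The log2 fold change was -0.09 ± 0.059 (SE; 95% interval -0.21 to 0.04; adjusted p = 0.252, limma). Short reads limit the reading of both genes, since 9.7% of the 50-base stretches of SUZ12 and 8.6% of those of EED also occur in other genes. The SUZ12 pseudogene SUZ12P1 was at 15.7 CPM in the combination and 15.3 CPM with R1881.

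The histone-binding subunits were both lower, RBBP7 more firmly than RBBP4. RBBP7 (chrX:16839283-16870362, minus strand), which PRC2 shares with other chromatin complexes, was at 180.1, 179, 183, 164 and 173 CPM in combination libraries 1 to 5, against a lowest value of 178, a median of 196 and a highest of 214 CPM with R1881. Libraries 4 and 5 lay below every R1881 library and the other combination libraries overlapped its low end. The mean was 176 ± 7.65 CPM in the combination and 197.5 ± 11.2 CPM with R1881, with a log2 fold change of -0.17 ± 0.042 (SE; adjusted p = 0.00356, limma). The call was lost against R1881 libraries 71 to 75 alone (-0.12, adjusted p = 0.0507, limma).

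RBBP4, the paralogue of RBBP7 (chr1:32651142-32686211, plus strand), was at 396, 409, 411, 346 and 387 CPM in combination libraries 1 to 5 and had a lowest value of 378, a median of 427 and a highest of 447 CPM with R1881. Library 4 was the lowest of all and the other combination libraries lay within the R1881 range. The log2 fold change was -0.11 ± 0.045 (SE; adjusted p = 0.0484, limma), and the call was lost in 11 of 15 fits that left out a library, in edgeR (adjusted p = 0.0697) and in DESeq2 (adjusted p = 0.0918). Of the 50-base stretches of RBBP4, 31.9% also occur in other genes, among them the antisense gene SYNC (0.455 CPM in the combination and 0.664 CPM with R1881) and the pseudogenes RBBP4P1 (54.9 CPM in the combination and 57.1 CPM with R1881) and RBBP4P2 (35.5 CPM in the combination and 37.2 CPM with R1881). The strand setting of the counting is not given in the sources used here, and reads of SYNC and of TXLNG, antisense to RBBP7 at 35.7 CPM in the combination and 33.6 CPM with R1881, may therefore be included.

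The ratio of RBBP4 to RBBP7 ranged from 2.11 to 2.28 (median 2.24) in the combination and from 2.08 to 2.25 (median 2.12) with R1881. The log2 difference was 0.05, with an exact permutation p of 0.0250 and 0.04995 after adjustment. The ranges overlapped, and 13 of the 15 tests that left out a library no longer passed the threshold.

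Of the accessory subunits JARID2, MTF2 and PHF19, only JARID2 passed the main test. JARID2, a DNA-binding partner that carries no active demethylase despite its Jumonji domain (chr6:15246069-15522042, plus strand), was at 27.6, 28.4, 29.2, 30.1 and 29.7 CPM in combination libraries 1 to 5. With R1881 its lowest, median and highest values were 24.2, 25.6 and 29.8 CPM. The highest belonged to R1881 library 7, and the other 9 R1881 libraries, at 24.2 to 26.8 CPM, lay below all combination libraries. JARID2 averaged 28.99 ± 1.02 CPM in the combination and 26.1 ± 1.57 CPM with R1881, with a log2 fold change of 0.15 ± 0.047 (SE; adjusted p = 0.0126, limma). The call was lost against R1881 libraries 51 to 55 alone (0.10, adjusted p = 0.159, limma) and without combination libraries 3 and 4 together (0.13, adjusted p = 0.0802, limma).

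MTF2, a Polycomb-like protein that binds unmethylated CpG islands (chr1:93079235-93139079, plus strand), was at 27.005, 27.3, 23.2, 22.6 and 26.5 CPM in combination libraries 1 to 5, against 21.2, 23.6 and 26.2 CPM as lowest, median and highest with R1881. Libraries 1, 2 and 5 lay above the R1881 range and libraries 3 and 4 within it. The log2 fold change was 0.09 ± 0.058 (SE; 95% interval -0.03 to 0.22; adjusted p = 0.203, limma). Without libraries 3 and 4, the lowest of the combination for MTF2, it was 0.19 (adjusted p = 0.0181, limma). Leaving out the lowest values raises the difference by construction, so no conclusion is drawn from that call.

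PHF19, another Polycomb-like protein (chr9:120855651-120894896, minus strand), was the least abundant member per length and rested on as few as 51 reads in a library. It was at 4.19, 3.24, 3.08, 5.61 and 4.11 CPM in combination libraries 1 to 5 and had a lowest value of 3.30, a median of 3.65 and a highest of 4.01 CPM with R1881. Libraries 2 and 3 lay below the R1881 range and the other combination libraries above it. The log2 fold change of 0.10 ± 0.103 (SE; 95% interval -0.11 to 0.32; adjusted p = 0.444, limma) turned to -0.01 without combination library 4. The ratio of MTF2 to PHF19 was 4.03 to 8.43 in the combination and 5.52 to 7.49 with R1881, a log2 difference of -0.02 with an exact permutation p of 0.902. JARID2 to MTF2 ranged from 1.02 to 1.33 in the combination and from 1.04 to 1.14 with R1881, with a log2 difference of 0.06 and an exact p of 0.312.

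Per transcript length, the members spanned a wide range of levels in the same order in both groups. RBBP7 was highest at 77.1 CPM per kb in the combination and 86.6 with R1881, followed by RBBP4 at 49.4 in the combination and 53.5 with R1881. The lengths were not corrected for shared 50-base stretches, 31.9% in RBBP4 and 5.8% in RBBP7, and the part of these in the gap was not tested. SUZ12 was at 21.9 CPM per kb in the combination and 21.04 with R1881. EED was at 9.69 CPM per kb in the combination and 10.3 with R1881, and MTF2 at 6.21 in the combination and 5.80 with R1881. JARID2 was at 4.83 CPM per kb in the combination and 4.34 with R1881, and PHF19 at 0.975 in the combination and 0.882 with R1881. EZH2 ranked just above EED, and EZH1 between MTF2 and JARID2. In the combination the ranges of the neighbours EZH2 and EED overlapped, as did those of MTF2 and EZH1. With R1881 the range of EZH2 again overlapped that of EED, although their means differed by more than the SD of either gene, MTF2 lay above EZH1, and EZH1 overlapped JARID2.

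The scaling affected the count of calls. The deposited values carried a scaling beyond library totals, and scaling the recovered reads by totals alone raised the median gene by 0.07 on the log2 scale. By totals, 1 member was lower (EZH2, log2 fold change -0.25) and 3 were higher (EZH1, 0.35; JARID2, 0.22; MTF2, 0.16), against 17.5% of all genes lower and 30.8% higher. RBBP7 (-0.09, adjusted p = 0.0701, limma) and RBBP4 (-0.04, adjusted p = 0.483, limma) were then not called.

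**Figure D3:**
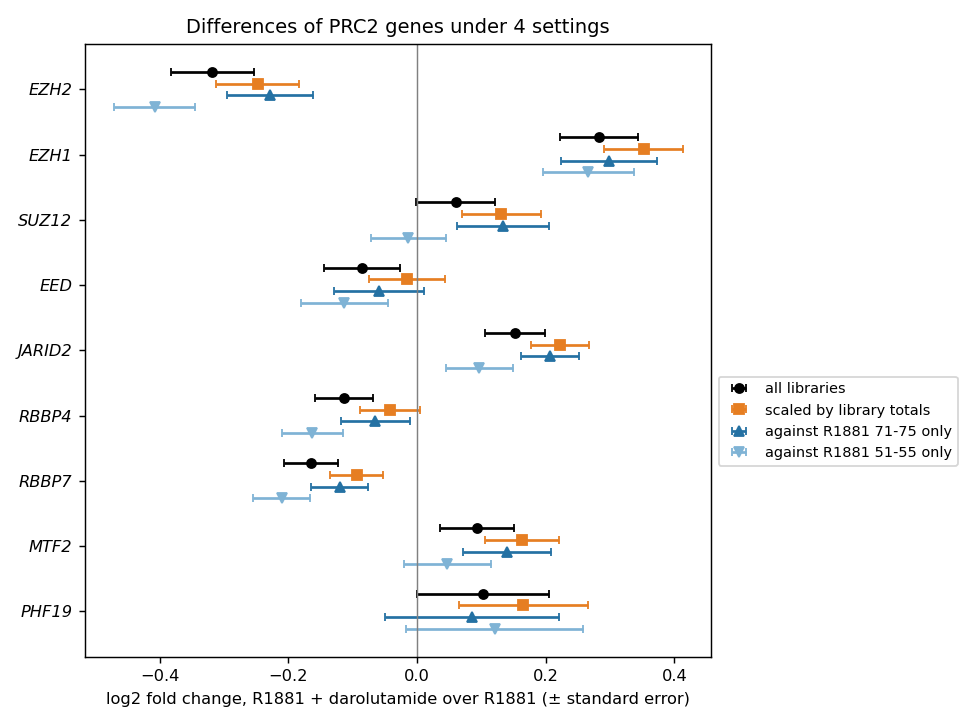
Log2 fold change of each PRC2 gene, the combination over R1881, with bars of 1 standard error, in all libraries, with reads scaled by library totals, and against each series of R1881 libraries alone. EZH2 stayed between -0.41 and -0.23 and EZH1 between 0.27 and 0.35, on opposite sides of 0 under all 4 settings, while SUZ12 crossed 0.

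The R1881 libraries numbered 71 to 75 and 51 to 55 received the same treatment, and their difference shows the spread between series of libraries. No member passed between them by limma (adjusted p under 0.05) or edgeR, against 3.1% of all genes by limma, although EZH2, SUZ12 and RBBP4, 3 of 9, had an unadjusted p under 0.05, as had 23.7% of all genes. EZH2 was at 31.0 ± 1.74 CPM in libraries 71 to 75 and 35.2 ± 1.72 CPM in libraries 51 to 55 (log2 difference -0.18, adjusted p = 0.0755, limma), a gap of more than 1 SD between libraries of the same treatment. SUZ12 differed by -0.15 and RBBP4 by -0.10. Without R1881 library 1 the EZH2 difference was called (-0.21, adjusted p = 0.0439, limma). EZH1 differed by -0.03.

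Proliferation genes were lower in the same libraries as EZH2. Of 12 such genes, 11 were lower, against 23.7% of all genes. All 12 had a negative log2 fold change, with a median of -0.49 against 0.00 over all genes. MKI67, which encodes the Ki-67 antigen of cycling cells, was at 61.7 ± 3.601 CPM in the combination and 108 ± 12.5 CPM with R1881 (log2 fold change -0.79), the cell cycle kinase gene CDK2 was lower by a log2 fold change of -0.50, and AURKB, a mitotic kinase gene, by -0.74. MCM2, a replication helicase gene, did not pass. The summed level was 844 to 898 CPM in the combination and 1051 to 1290 CPM with R1881, and between the R1881 series, 71 to 75 over 51 to 55, the median log2 difference was -0.19. The part of the proliferation genes in the EZH2 difference was not tested.

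Among 10366 genes of at least 10 CPM, the 5 whose log2 values followed EZH2 most closely over the 15 libraries were HOOK3, ZFX, NUP35, ZBTB2 and RRM1. Each value was set relative to the R1881 mean of its gene, and the root mean square difference from EZH2 was 0.0600 to 0.0657 against a median of 0.247 over the genes compared. Their log2 fold changes ran from -0.34 to -0.27, near the -0.32 of EZH2. The treatment difference is part of this measure, so closeness in fold change follows from how the genes were chosen. The list is a description, since all genes share the same libraries.

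The other accessory genes of PRC2 changed in both directions. Of 6 listed, 5 were in the table, and 3 were lower, 1 higher and 1 did not pass. Of all genes, 23.7% were lower and 22.8% higher. AEBP2, a zinc finger partner that joins the same form of the complex as JARID2, was at 42.6, 49.2, 47.2, 40.03 and 44.7 CPM in combination libraries 1 to 5 and had 38.0 CPM as its highest R1881 value, so the groups did not overlap. It averaged 44.8 ± 3.63 CPM in the combination and 35.6 ± 2.36 CPM with R1881 (log2 fold change 0.33, adjusted p = 0.000127, limma).

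PHF1, the third Polycomb-like gene beside MTF2 and PHF19, was lower, at 25.6 ± 3.31 CPM in the combination and 32.8 ± 3.12 CPM with R1881 (log2 fold change -0.35, adjusted p = 0.00111, limma). LCOR, whose locus encodes a PRC2 partner (PALI1), was at 31.6 CPM in the combination and 38.97 CPM with R1881 (-0.30), and EPOP, an Elongin-binding partner listed under its older name C17orf96, at 14.3 CPM in the combination and 16.0 CPM with R1881 (-0.16). LCORL, the relative of LCOR, was at 17.6 CPM in the combination and 15.9 CPM with R1881 (0.14, adjusted p = 0.145, limma). By library totals the count of these genes was 2 lower and 2 higher, against 17.5% and 30.8% of all genes.

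The demethylases that remove the PRC2 mark differed from each other. KDM6A (UTX) rose to 391.5 ± 21.7 CPM in the combination, against 274 ± 11.6 CPM with R1881, a log2 fold change of 0.51 (adjusted p = 3.30e-09, limma). Its lowest combination library, at 362 CPM, lay above the highest R1881 library at 294 CPM. KDM6B was at 53.7 ± 20.01 CPM in the combination and 45.4 ± 7.14 CPM with R1881 (0.19, adjusted p = 0.351, limma), and its log2 fold change without combination library 4, which stood at 87.9 CPM, was -0.01.

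Of the 23 genes of PRC1, the complex that binds the mark made by PRC2 and ubiquitinates histone H2A, 5 were lower, 6 higher and 12 not past the test, with a median log2 fold change of 0.08. These counts were close to the shares over all genes, 23.7% lower and 22.8% higher. PHC1, a polyhomeotic subunit, was at 34.9 ± 3.09 CPM in the combination and 25.2 ± 1.70 CPM with R1881 (0.46). CBX6, a chromodomain subunit, was at 158 ± 26.8 CPM in the combination and 107 ± 9.40 CPM with R1881 (0.55), and PCGF5, a RING finger subunit, at 37.4 CPM in the combination and 31.1 CPM with R1881 (0.26). SCMH1 (-0.26), the RING1-binding gene RYBP (-0.25) and the ubiquitin ligase gene RNF2 (-0.26) were lower. By library totals 4 were lower and 8 higher, against 17.5% and 30.8% of all genes. Of 6 genes of the deubiquitinase complex PR-DUB, which removes the PRC1 mark, 5 were in the table. None of them passed by limma, edgeR or DESeq2, and 0 had an unadjusted limma p under 0.05. The log2 fold changes were 0.13 for ASXL2, -0.10 for FOXK2, 0.05 for FOXK1, -0.02 for the deubiquitinase gene BAP1 and 0.01 for ASXL1, with 1 gene higher by library totals and 1 lower without combination library 4.

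RBBP4 and RBBP7 also serve the NuRD, SIN3 and CAF-1 complexes. Of 17 other genes of these complexes, 5 were lower, 2 higher and 10 not past the test, with a median of -0.07. The shares over all genes were 23.7% lower and 22.8% higher, and by library totals 17.5% lower and 30.8% higher. MTA2 (-0.34) and MBD2 (-0.54) of NuRD and SIN3A (-0.26) were lower, while HDAC1 (0.16) and GATAD2B (0.15) were higher. Without combination library 4, 9 of the 17 were lower and 2 higher, against 27.7% of all genes lower and 23.7% higher in that fit, and by library totals 4 were lower and 4 higher. Of 10 genes for other repressive methylation, on histone H3 lysine 9 and on DNA, 3 were lower and 2 higher. SUV39H1 (-0.43), DNMT1 (-0.22) and EHMT1 (-0.25) were lower, and DNMT3B (0.32) and SETDB1 (0.12) were higher, with 1 lower and 4 higher by library totals. Of 5 genes for the opposing methylation of lysine 36, NSD1 was higher (0.14) and NSD2, listed under its older name WHSC1, lower (-0.07). SETD2 (0.07), ASH1L (-0.06) and NSD3 (0.01, listed as WHSC1L1) did not pass, and by library totals 0 were lower and 2 higher.

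**Figure D4:**
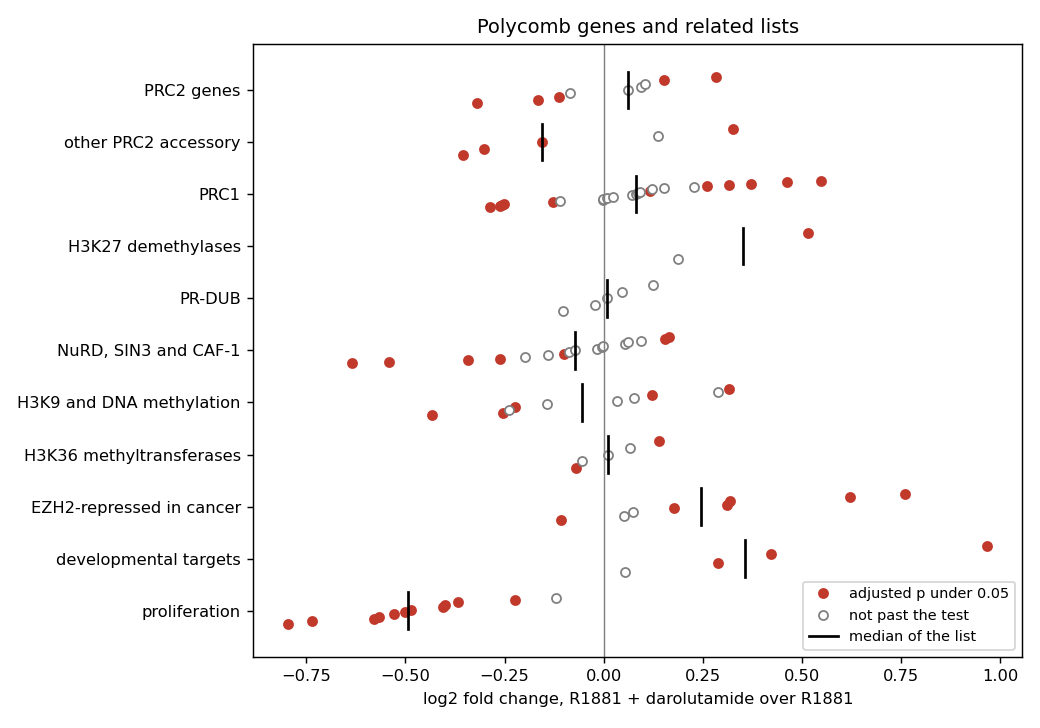
Log2 fold change, the combination over R1881, of each gene in the PRC2 list and in related lists, with filled points for genes past the test, open points for the others and a bar at the list median. Members of the PRC2 list lie on both sides of 0, with 3 of 9 lower and 2 of 9 higher, close to the 23.7% and 22.8% of all genes. Of 12 proliferation genes, 11 lie past the test on the lower side.

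Genes described as silenced through EZH2 in cancer, and developmental genes marked by PRC2, were examined at the RNA level only, since the histone mark was not measured here. Of 13 genes of the first list, 8 were in the table, 5 higher, 1 lower and 2 not past the test, with a median of 0.24. For comparison, 22.8% of all genes were higher and 23.7% lower. VASH1, an angiogenesis inhibitor gene, was at 3.03 ± 0.723 CPM in the combination and 1.58 ± 0.3197 CPM with R1881 (log2 fold change 0.76). CDKN2A, a cell cycle inhibitor gene, was at 8.00 ± 2.28 CPM in the combination and 6.20 ± 0.491 CPM with R1881 (0.31) and was no longer called without combination library 4 (0.16, adjusted p = 0.0726, limma). The Raf kinase inhibitor gene PEBP1 was lower (-0.11). By library totals none was lower and 6 were higher, against 17.5% and 30.8% of all genes.

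Of 22 developmental genes, 4 were in the table, 3 of them higher and the fourth, LHX2, not past the test (0.05). Among all genes, 22.8% were higher. By library totals 3 were higher and 0 lower, against 30.8% and 17.5% of all genes. HOXA10, a homeobox gene, was at 28.7 ± 1.28 CPM in the combination and 14.4 ± 1.03 CPM with R1881, a log2 fold change of 0.97 (adjusted p = 8.63e-11, limma). HOXA11 was low, at 0.476 CPM in the combination and 0.234 CPM with R1881 (0.42), and rested on 2 to 14 reads per library. The GATA factor gene GATA6 was at 5.59 CPM in the combination and 4.48 CPM with R1881 (0.29). The other 18 were not in the table, so no more can be said of them. The filter on genes is not given, and a gene may be in the table only through the group where it is high. The genes found are therefore not a fair sample of this list or of the first one. The part of EZH2 or EZH1 in these values was not tested.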

How the data were processed

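RNA from LNCaP cells was sequenced by the authors as 50-base single-end reads (TruSeq Stranded mRNA, poly-A), converted with bcl2fastq (version 2.17), aligned to GRCh38 with STAR and counted with featureCounts of Subread. Their versions where not named, the annotation, the filter on genes and the scaling are not given in the sources used here. The deposited values, called CPM here, are a scaled signal per gene whose columns do not sum to 1 common total, and they were used as the authors scaled them. Each library was divided by its smallest positive value, taken as a single read. This gave whole reads for 100% of values (tolerance 0.001 reads), and edgeR called 8049 genes on these reads and limma 8044 on the deposited values.

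Differences were tested with limma (version 3.58.1, R 4.3.3, trend) on log2(CPM + 0.5) over all 17272 genes without a filter, at a Benjamini-Hochberg adjusted p under 0.05. Fold changes on this scale understate the change of low genes. The 4 ratios were tested by exact permutation. Alternatives were edgeR (4.0.16), DESeq2 (1.42.0), pseudocounts of 0.1 and 1, a mean of at least 1 CPM, scaling by totals, a replicate block, each R1881 series alone and leaving out libraries. Tests were checked on simulated data. The plan had assumed plain CPM, and the limma test was kept for the scaled values.

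Members and lists were chosen with earlier results of these data known. All 9 members are named, in other lists up to 3 genes per direction of smallest p, every gene of lists of 6 or fewer, and any other gene named was chosen after its values were seen. Some genes that this rule names are not reported here. Groups follow the sample labels, and the study calls the libraries biological replicates. The closest pair of libraries differed by 1.62 chi-square per gene, above the 1 that counting noise gives, so all were kept. Promoters came from RefSeq. The E2F words TTTGGCGC or TTTCCCGC, the NF-Y word CCAAT, the cell cycle word TTTGAA and the full androgen response palindrome were searched on both strands from 250 bases before to 50 after the start, and occurred in 0.652%, 1.63%, 34.6%, 15.2% and 0.00285% of promoters. An E2F word was found in 4 members, CCAAT in 7, TTTGAA in SUZ12 alone and the androgen response word in 0 of 9. Either E2F word occurred in 2.27% of promoters. The percentages are per promoter window, whereas members were counted over 14 windows, with 2 windows for 5 of the 9 members.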

Additional observations from a re-analysis of the deposited data

Results flagged for a closer look

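Of 136 groups of values examined, 11 held a library far from the rest of its group by Dixon's criterion, where chance gives about 5% of groups. The highest JARID2 value, 29.8 CPM in R1881 library 7, stood above the other 9 at 24.2 to 26.8 CPM, and the ratio of RBBP4 to RBBP7 was 2.25 in R1881 library 4 with the others at 2.08 to 2.168. HOXA11 was 0.529 CPM in the same R1881 library 4, against 0.0968 to 0.309 CPM in the others, and KRT14 was 0.878 CPM in combination library 1, against 0.528 to 0.607 CPM.

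The remaining 7 were values of combination library 4. They were COL1A1 at 20.6 CPM (others 5.55 to 8.86), CDKN2A at 12.02 CPM (6.62 to 7.46), EHMT1 at 83.3 CPM (45.1 to 55.6), DNMT3B at 7.31 CPM (5.603 to 6.02), GATAD2B at 48.1 CPM (55.4 to 56.9), PEBP1 at 460.2 CPM (418 to 428) and FKBP5 at 133 CPM (154 to 162). Without that library EZH2 was lower by a log2 fold change of -0.27 and EZH1 higher by 0.32.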

How the results depend on the processing

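Of 225 alternative values for the 9 members, 200 kept their direction and side of the threshold, 21 lost the call, 2 gained it and 2 turned in sign. EZH2 and EZH1 kept their calls in every alternative run. Members lower numbered 3, against 23.7% of all genes. They numbered 1 by library totals (17.5% of all genes lower) and 1 against R1881 libraries 71 to 75 (3300 of 17272 genes lower). Members higher numbered 2, against 22.8% of all genes, but 1 against libraries 51 to 55 (3350 of 17272 genes higher). Leaving out single libraries gave 2 to 3 lower and 2 to 2 higher, 0 to 1 differing between the R1881 series, and 7218 to 8877 genes called. SUZ12 turned to -0.014 against libraries 51 to 55, and PHF19 ranged from -0.010 (without combination library 4) to 0.18.

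The log2 difference of RBBP4 to RBBP7 was 0.0484 against libraries 51 to 55 and 0.0557 against libraries 71 to 75, 0.0520 and 0.0514 with pseudocounts of 0.1 and 1, all with an adjusted p above 0.05 (0.238, 0.0952, 0.0506 and 0.0513, exact permutation), and 0.042 to 0.069 leaving out libraries. MTF2 to PHF19 turned to 0.050 against libraries 71 to 75 and ranged from -0.12 to 0.15. The cause of these changes was not tested.

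The replicate block, taken from shared numbers in the labels, called 6242 genes and lost RBBP4 (-0.11, adjusted p = 0.134, limma). The numbers were not taken as pairs, since deviations of same-numbered libraries correlated by -0.139 to 0.335 and 1 of 5 combination libraries correlated best with its own number. Counts for the lists without combination library 4 were added after seeing the data. PHF19 is limited by depth, with 51 to 119 reads per library.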
